A study of Mus musculus with 24 samples.

Results

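Monocytes, macrophages and dendritic cells share a set of genes for sensing, taking up and digesting microbes. A list of 38 such genes was followed in blood-forming cells of mice without and with BAP1, a nuclear deubiquitinase that removes ubiquitin from histone H2A. The list was compiled from known functions and matched to the gene symbols of the array. Of the 38 genes, 34 had a probe among the 17741 genes measured, and Lyz1, Lyz2, Ly86 and Tyrobp, which were not matched to a probe, are not analysed here. The list was drawn up with earlier results of these data known, so its counts describe these genes and are no independent evidence of a direction.

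The 4 groups were BAP1 KO myeloid progenitors from mice 7 and 8, BAP1 WT myeloid progenitors from mice 5 and 6, BAP1 KO LSK cells from mice 2 and 4, and BAP1 WT LSK cells from mice 1 and 3. Myeloid progenitors are the lineage-negative, Sca1-negative, Kit-positive fraction of bone marrow, and LSK cells are the lineage-negative, Sca1-positive, Kit-positive fraction, which is enriched for hematopoietic stem cells. All mice were of the C57BL/6 strain, and the labels give 1 protocol for both genotypes, tamoxifen injection to delete BAP1 throughout the body. The sources used here give neither the Cre line and its promoter nor the age of the mice nor the time after tamoxifen. Each mouse gave 3 one-colour arrays, 24 in all, and no mouse gave both populations.

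Monocytes and dendritic cells arise in the bone marrow from progenitors in which the factor PU.1 opens the myeloid program, and IRF8 and KLF4 are needed for the monocyte branch. As these cells mature they gain Fc receptors, Toll-like receptors, scavenger receptors and a large lysosomal compartment, while LSK cells stand before that commitment. Most of the 38 genes are therefore best known from cells later in the pathway than those sorted here.

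Expression is given as log2 values per mouse, each the mean of 3 arrays, and a gene is represented by its brightest probe. A gene is said to have risen or fallen where the limma p-value, adjusted by Benjamini-Hochberg over all 22439 probes, was under 0.05. Levels of different genes come from different probes and are not ranked against each other. The arrays measured bulk RNA, so fewer cells of a type and less RNA per cell cannot be told apart.

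The sorts could be checked on their markers. Of 7 measured LSK markers, 5 were lower in myeloid progenitors than in LSK cells in each genotype, and of 9 markers of myeloid progenitors 6 were higher there in each genotype. The LSK marker Slamf1 went the other way in KO mice (0.34 ± 0.08, limma adjusted p = 0.0277), with means in the lowest 25% of probes in every group. Kit lay between 12.76 and 13.49 in every mouse, and Ly6a, which encodes Sca1, was not matched to a probe. Bap1 itself had 11.67 and 11.85 in KO myeloid progenitors against 11.54 and 11.59 in WT myeloid progenitors, and 11.96 and 11.84 in KO LSK cells against 11.55 and 11.45 in WT LSK cells. It did not pass in either population (limma adjusted p = 0.843 and 0.321), and since the position of the probe within Bap1 is unknown, it does not check the labels. The Y-linked gene Kdm5d had 8.15 in mouse 5 and 7.88 in mouse 1, both WT, and between 5.93 and 6.02 in the other mice. The X-linked gene Xist had 7.28 in mouse 5 and 7.37 in mouse 1, and between 7.51 and 7.87 in the other mice. Mouse 1 and mouse 5 thus stand apart in these genes from every KO mouse, and results without them are given beside the main ones. Whether mice 1 and 5 differ in sex from the others was not tested.

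**Figure D1:**
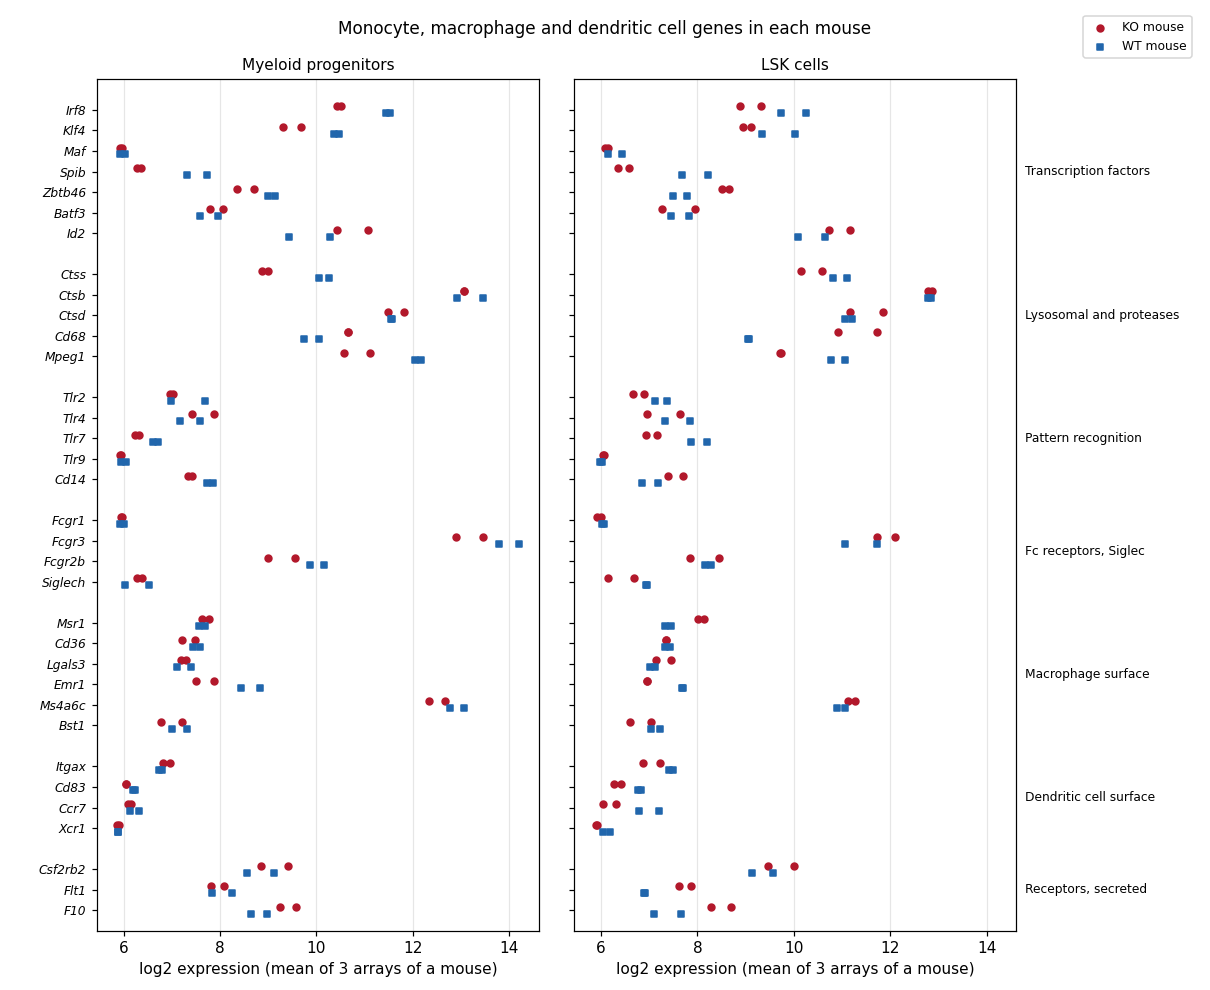
Log2 expression of the 34 measured genes in each mouse, in myeloid progenitors (left) and LSK cells (right), with a circle for each KO mouse and a square for each WT mouse (2 mice a group, mean of 3 arrays each). The KO mice lie below both WT mice for Irf8, Klf4, Spib, Ctss, Mpeg1, Tlr7, Emr1 and Cd83 in both populations, and above them for Id2, Cd68 and F10.

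Loss of BAP1 went with changes in both directions among the 34 genes. In KO myeloid progenitors 4 fell against WT, namely Spib, Mpeg1, Ctss and Emr1, and 0 rose (3 had an unadjusted p under 0.05 and a higher KO mean). Of the measured members 11.8% thus passed, all downward, beside 2.64% of all genes in either direction, 1.74% fallen and 0.908% risen. In KO LSK cells 6 fell, Spib, Mpeg1, Tlr7, Ccr7, Cd83 and Xcr1, and 5 rose, Cd68, F10, Zbtb46, Flt1 and Msr1. There the members stood at 17.6% fallen and 14.7% risen, beside 2.9% and 1.74% of all genes (32.4% against 4.64% in either direction). Spib and Mpeg1 were the members that passed in both populations.

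Averaged over both populations, 9 members fell in KO mice and 2 rose, beside 4.85% and 3.09% of all genes (32.4% of the members and 7.95% of all genes in either direction). The 9 were Irf8, Klf4, Spib, Ctss, Mpeg1, Tlr7, Emr1, Cd83 and Ccr7, and the 2 were Cd68 and F10. The median log2 difference of the members was -0.11 in myeloid progenitors and -0.08 in LSK cells, beside 0.00 and 0.02 over all genes. These medians were not stable: that in myeloid progenitors was 0.00 without mouse 5 and -0.20 without mouse 6. Over probes above the 50th percentile of brightness, which kept 22 members, the medians were -0.15 in myeloid progenitors, 0.22 in LSK cells and 0.02 on average (-0.10 over all 34). The KO mice lay below both WT mice for 14 members in myeloid progenitors and 15 in LSK cells, and above both for 4 and 11. Over all genes 20.8% and 20.9% lay below in this way, and 20.3% and 25.7% above. With mice 1 and 5 left out, 1 WT mouse remained in each population. The members' median change was then 0.00 in myeloid progenitors, -0.08 in LSK cells and -0.08 on average. Fewer members and fewer of all genes passed in each of these contrasts.

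**Figure D2:**
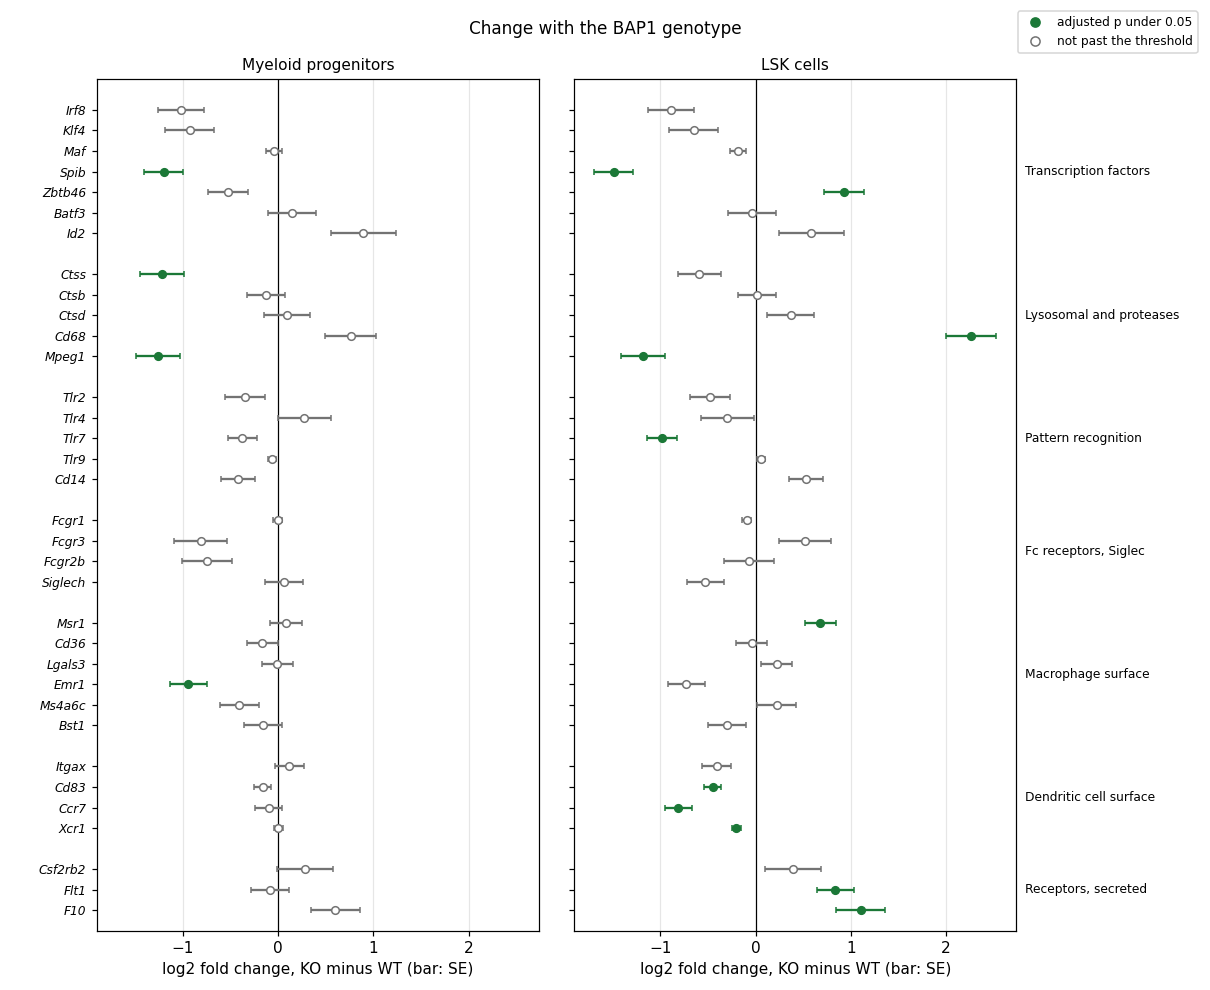
Log2 fold change of each measured gene, KO minus WT, in myeloid progenitors (left) and LSK cells (right), with bars for the standard error of the limma fit (2 mice a group) and filled points for adjusted p under 0.05. Filled points lie to the left of zero for 4 genes in myeloid progenitors, and to the left for 6 and to the right for 5 in LSK cells.

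The transcription factors held the member with the lowest adjusted p in the average contrast, Spib, an ETS-family relative of PU.1 known for plasmacytoid dendritic cells and B cells. It had 6.37 and 6.28 in KO myeloid progenitors against 7.31 and 7.74 in WT ones, and 6.58 and 6.34 in KO LSK cells against 7.68 and 8.23 in WT ones. All 4 KO mice were below all 4 WT mice, and the KO values lay just above the lowest 25% of probes on an array, which ends at 6.18 at most. The fall was -1.20 ± 0.20 in myeloid progenitors (SE, limma adjusted p = 0.0115) and -1.49 ± 0.20 in LSK cells (adjusted p = 0.00267), or 2.30-fold and 2.81-fold. The call in myeloid progenitors was lost without mouse 6 or mouse 8, with an adjusted p of up to 0.104.

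Irf8, the interferon regulatory factor that directs progenitors to monocytes and dendritic cells, had 10.52 and 10.42 in KO myeloid progenitors against 11.45 and 11.53 in WT ones. In LSK cells it had 9.31 and 8.89 in KO mice against 9.73 and 10.25 in WT mice. Neither population passed alone (-1.02 ± 0.24, limma adjusted p = 0.0554, and -0.89 ± 0.24, adjusted p = 0.0698), while the average of -0.96 ± 0.17 did (adjusted p = 0.00595) and kept its call in all 16 alternatives tried for it. Klf4, a zinc-finger factor of inflammatory and patrolling monocytes, was likewise lower in both KO mice of each population, with 9.68 and 9.31 in KO myeloid progenitors against 10.37 and 10.47 in WT ones, and 8.95 and 9.10 in KO LSK cells against 10.01 and 9.35 in WT ones. Its average fall of -0.79 ± 0.18 (adjusted p = 0.0228) was lost without mouse 1, 2, 5, 6 or 8.

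Zbtb46, a repressor that marks classical dendritic cells and their precursors, had opposite orders of KO and WT mice in the sorted populations. It had 8.36 and 8.71 in KO myeloid progenitors against 9.0 and 9.14 in WT ones, and 8.64 and 8.50 in KO LSK cells against 7.50 and 7.78 in WT ones. The KO mice were thus below both WT mice in myeloid progenitors (-0.53 ± 0.21, limma adjusted p = 0.344) and above both in LSK cells (0.93 ± 0.21, adjusted p = 0.0325). The rise in LSK cells was lost without mouse 1, 2, 3 or 4. Id2, an inhibitor of E proteins needed for conventional dendritic cells, had 11.08 and 10.43 in KO myeloid progenitors against 10.28 and 9.44 in WT ones, and 11.16 and 10.74 in KO LSK cells against 10.64 and 10.08 in WT ones, and did not pass on average (0.74 ± 0.24, adjusted p = 0.107). Batf3, which cross-presenting dendritic cells need, ranged from 7.27 to 8.06 with overlapping groups, and the macrophage factor Maf from 5.92 to 6.44, with the means of 3 groups in the lowest 25% of probes.

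Among the lysosomal and microbicidal genes, 2 of 5 measured fell in KO myeloid progenitors, beside 1.74% of all genes. In KO LSK cells 1 fell and 1 rose, beside 2.9% and 1.74% of all genes. Mpeg1 encodes perforin-2, a pore-forming protein of phagocytes. It had 11.11 and 10.57 in KO myeloid progenitors against 12.04 and 12.17 in WT ones, and 9.71 and 9.73 in KO LSK cells against 10.76 and 11.05 in WT ones. Within each population the KO mice were below both WT mice, by 1.26 ± 0.23 and 1.18 ± 0.23 on the log2 scale (limma adjusted p = 0.0154 and 0.0161; fold changes of 2.40 and 2.27). The fall of -1.22 ± 0.16 on average kept its call in every alternative, with values from -1.36 to -0.63. Calls within a population did not hold throughout. In myeloid progenitors the call was lost without mouse 5, 6 or 8, and in LSK cells without mouse 2 or 3. Both calls were lost with mice 1 and 5 left out together, where the change was -1.33 in each population. Both were also lost where the gene's second probe, with group means of 6.29 to 6.47 and changes of -0.03, was averaged in.

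Ctss encodes cathepsin S, the protease that trims the invariant chain of MHC class II. It had 9.0 and 8.86 in KO myeloid progenitors against 10.04 and 10.25 in WT ones, and 10.57 and 10.14 in KO LSK cells against 11.09 and 10.80 in WT ones. It fell by 1.22 ± 0.23 in myeloid progenitors (limma adjusted p = 0.0183), a call lost without any 1 of the 4 mice of that population, and its change in LSK cells was -0.59 ± 0.23 (adjusted p = 0.219). Cd68, the heavily glycosylated lysosomal protein used to stain macrophages, went the other way. It had 11.72 and 10.92 in KO LSK cells against 9.04 and 9.08 in WT ones, a rise of 2.26 ± 0.27 or 4.80-fold (adjusted p = 0.0012), and 10.66 and 10.65 in KO myeloid progenitors against 9.74 and 10.05 in WT ones (0.76 ± 0.27, adjusted p = 0.25). No other member changed by as much in either population, and its calls in LSK cells and on average held in every alternative. The lysosomal proteases Ctsb and Ctsd did not pass, with changes from -0.13 to 0.37 on the brightest probes. A second, dimmer Ctsb probe differed from the first: its KO mice were above both WT mice in each population (0.54 ± 0.21 and 0.53 ± 0.21, adjusted p = 0.337 and 0.24), and it did not pass on average (0.54 ± 0.15, adjusted p = 0.0575).

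The promoters of Spib, Mpeg1, Ctss and Cd68 are shown because the first pair fell in both populations and the second pair changed on average in opposite directions while both hold a PU.1 core motif. Each is the 250 bases before the gene's start, read along the gene's strand, from RefSeq on GRCm38.p6, with GAGGAA on either strand in capitals. Spib lies at chr7:44532072-44532321 on the minus strand, Mpeg1 at chr19:12460520-12460769 on the plus strand, Ctss at chr3:95526536-95526785 on the plus strand and Cd68 at chr11:69666171-69666420 on the minus strand.
Spib: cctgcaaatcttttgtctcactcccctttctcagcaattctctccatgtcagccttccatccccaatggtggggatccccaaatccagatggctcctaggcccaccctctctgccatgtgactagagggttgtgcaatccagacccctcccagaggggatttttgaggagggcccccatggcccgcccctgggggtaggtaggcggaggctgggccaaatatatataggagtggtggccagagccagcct
Mpeg1: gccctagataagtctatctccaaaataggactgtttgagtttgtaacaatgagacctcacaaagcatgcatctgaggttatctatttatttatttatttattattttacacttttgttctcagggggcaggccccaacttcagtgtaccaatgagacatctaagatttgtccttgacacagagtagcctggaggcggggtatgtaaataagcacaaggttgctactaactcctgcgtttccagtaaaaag
Ctss: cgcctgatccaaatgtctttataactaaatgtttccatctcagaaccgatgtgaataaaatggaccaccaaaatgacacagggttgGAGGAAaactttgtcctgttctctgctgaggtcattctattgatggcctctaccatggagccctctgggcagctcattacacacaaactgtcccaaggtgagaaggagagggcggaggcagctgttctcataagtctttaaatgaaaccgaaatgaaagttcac
Cd68: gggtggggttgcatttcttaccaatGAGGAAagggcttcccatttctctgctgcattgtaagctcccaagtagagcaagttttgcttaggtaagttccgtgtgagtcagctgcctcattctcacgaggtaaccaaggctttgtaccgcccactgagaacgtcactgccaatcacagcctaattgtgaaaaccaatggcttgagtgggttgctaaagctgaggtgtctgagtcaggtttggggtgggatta
The motif begins at position -164 from the start in Ctss and at -225 in Cd68, both on the gene's strand, and these letters are not in the windows of Spib and Mpeg1. GAGGAA was present on 1 strand or the other in 8 of the 27 promoters of listed genes read here. It was present in 6252 of 27025 promoters of the same length (23.1%). The 27 include Lyz1, Lyz2 and Ly86, which were not matched to a probe, and do not include Emr1, Tlr7, Cd83 or Ccr7. Of the 7 promoters read for members that fell or rose on average, 2 held GAGGAA, those of Ctss and Cd68. The ETS-IRF composite motif, GGAA and GAAA with any 2 bases between them, searched on both strands, was found in 1 member promoter, that of Fcgr2b, and in 2.38% of all. A match is a description of these letters, not of a bound site.

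Of the pattern recognition genes, Tlr7, the endosomal receptor for single-stranded RNA, fell in KO LSK cells. It had 6.93 and 7.16 in KO LSK cells against 8.19 and 7.86 in WT ones (-0.98 ± 0.15, limma adjusted p = 0.00522), and 6.23 and 6.33 in KO myeloid progenitors against 6.71 and 6.60 in WT ones (-0.38 ± 0.15, adjusted p = 0.374). The KO mice were below both WT mice in each population, and the fall in LSK cells was lost with mice 1 and 5 both left out (adjusted p = 0.0616). Cd14, the co-receptor that hands lipopolysaccharide to TLR4, had 7.34 and 7.41 in KO myeloid progenitors against 7.73 and 7.86 in WT ones, and 7.70 and 7.38 in KO LSK cells against 7.18 and 6.86 in WT ones. The groups did not overlap in either population and their order was reversed between them, but neither contrast passed (adjusted p = 0.41 and 0.152). Tlr2 and Tlr4, the receptors for bacterial lipopeptides and lipopolysaccharide, lay between 6.66 and 7.88 and did not pass, and the DNA receptor Tlr9 had group means in the lowest 25% of probes throughout. In myeloid progenitors 0 of the 5 passed by limma, 2 with an unadjusted p under 0.05.

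The 4 measured Fc receptor and Siglec genes did not pass by limma in either KO minus WT contrast, with 2 unadjusted p-values under 0.05 in myeloid progenitors and 1 in LSK cells. Fcgr3, the activating low-affinity IgG receptor, had 13.46 and 12.90 in KO myeloid progenitors against 14.20 and 13.79 in WT ones, and 11.72 and 12.09 in KO LSK cells against 11.06 and 11.72 in WT ones. Its changes of -0.81 ± 0.28 and 0.52 ± 0.28 had opposite signs (adjusted p = 0.242 and 0.418). Fcgr2b, its inhibitory counterpart, had 9.55 and 8.99 in KO myeloid progenitors against 9.86 and 10.17 in WT ones, and overlapping values of 7.85 and 8.44 in KO LSK cells against 8.15 and 8.28 in WT ones. The coding sequences of Fcgr3 and Fcgr2b are similar, and whether their probes cross-hybridise was not tested. The high-affinity receptor Fcgr1 was in the lowest 25% of probes in every group, and Siglech, a lectin of plasmacytoid dendritic cells, had 6.68 and 6.14 in KO LSK cells against 6.94 and 6.94 in WT ones without passing (adjusted p = 0.22).

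Of the 6 macrophage surface genes, Emr1, now named Adgre1 and encoding the F4/80 antigen, fell in KO myeloid progenitors. It had 7.87 and 7.51 in KO myeloid progenitors against 8.83 and 8.44 in WT ones (-0.94 ± 0.20, limma adjusted p = 0.0303), and 6.96 and 6.96 in KO LSK cells against 7.68 and 7.69 in WT ones (-0.73 ± 0.20, adjusted p = 0.0681). On average it fell by 0.84 ± 0.14 (adjusted p = 0.00387), a call kept in every alternative, whereas that in myeloid progenitors was lost without mouse 5 or 8. Msr1, the class A scavenger receptor, had 8.01 and 8.13 in KO LSK cells against 7.33 and 7.44 in WT ones (0.68 ± 0.17, adjusted p = 0.0466). That call was lost without any 1 of the 8 mice, and arrays of 1 mouse differed by an SD of up to 0.84 for this probe. A second, dimmer Msr1 probe changed by 0.14 in LSK cells without passing. Ms4a6c, a tetraspan protein of monocytes, had 12.67 and 12.33 in KO myeloid progenitors against 13.06 and 12.76 in WT ones, and 11.26 and 11.13 in KO LSK cells against 11.06 and 10.88 in WT ones, with opposite orders and no call. On its second, dimmer probe the KO and WT mice overlapped in myeloid progenitors. The fatty acid receptor Cd36, the lectin Lgals3 and the ectoenzyme Bst1 ranged from 6.60 to 7.58 and did not pass, though a second, dimmer Cd36 probe fell on average (-0.12).

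The 4 dendritic cell surface genes were lower in both KO LSK mice than in both WT LSK mice, and 3 of them fell there, beside 2.9% of all genes. Ccr7, the chemokine receptor that guides dendritic cells to lymph nodes, had 6.32 and 6.04 in KO LSK cells against 7.20 and 6.79 in WT ones (-0.81 ± 0.14, limma adjusted p = 0.0109). Cd83, a maturation marker, had 6.42 and 6.27 in KO LSK cells against 6.82 and 6.77 in WT ones (-0.45 ± 0.09, adjusted p = 0.0156). Xcr1, the chemokine receptor of cross-presenting dendritic cells, had 5.90 and 5.91 in KO LSK cells against 6.03 and 6.18 in WT ones (-0.20 ± 0.05, adjusted p = 0.0402), all in the lowest 25% of probes, and that call was lost without any 1 of mice 2 to 8. Itgax, which encodes CD11c, had 7.21 and 6.87 in KO LSK cells against 7.42 and 7.48 in WT ones and did not pass (adjusted p = 0.194). In myeloid progenitors 0 of the 4 passed by limma, 0 with an unadjusted p under 0.05, and their values there lay between 5.86 and 6.97. The Cd83 call was lost without mouse 1 or 4, and the Ccr7 call with mice 1 and 5 both left out (-0.61, adjusted p = 0.0615).

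Among receptors and secreted proteins 2 of 3 rose in KO LSK cells, beside 1.74% of all genes. F10, the precursor of coagulation factor X, had 8.28 and 8.69 in KO LSK cells against 7.10 and 7.66 in WT ones (1.10 ± 0.26, limma adjusted p = 0.0376), and 9.58 and 9.24 in KO myeloid progenitors against 8.98 and 8.64 in WT ones (0.60 ± 0.26, adjusted p = 0.41). The KO mice were above both WT mice in each population. Flt1, a receptor for vascular endothelial growth factor that monocytes carry, had 7.87 and 7.62 in KO LSK cells against 6.90 and 6.92 in WT ones (0.84 ± 0.20, adjusted p = 0.0385), while in myeloid progenitors it had 8.09 and 7.82 in KO mice against 8.24 and 7.84 in WT mice. Each of these calls in LSK cells was lost in 5 of the 8 fits that left out a mouse. Csf2rb2, a mouse beta subunit of the interleukin-3 receptor, did not pass in either population (0.28 ± 0.30 and 0.39 ± 0.30, adjusted p = 0.878 and 0.607). It has a near-identical copy, Csf2rb, whose part in the probe's signal was not tested.

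Markers of other cells moved in the same comparisons. The mean log2 level of 7 measured B cell markers lay at 7.64 to 7.73 in KO myeloid progenitors against 8.92 to 9.22 in WT ones, and at 7.46 to 7.70 in KO LSK cells against 9.33 to 9.39 in WT ones. In each population 4 of the 7 fell and 0 rose, beside 1.74% of all genes fallen in myeloid progenitors and 2.9% in LSK cells. Igll1, a surrogate light chain of B cell precursors, changed by -3.28 ± 0.31 and -4.91 ± 0.31 (limma adjusted p = 0.000581 and 7.56e-05). Of the 7 markers, 0 were in the lowest 25% of probes in every group. Spib, Irf8, Tlr7, Ccr7, Cd83 and Ctss, which fell in at least 1 contrast, are also known in B-lineage cells, and the part of such cells in these falls was not tested. Of 9 myeloid progenitor markers 2 rose in KO LSK cells, beside 1.74% of all genes. They were the granule proteases Elane (1.91 ± 0.39, limma adjusted p = 0.0311) and Ctsg (1.21 ± 0.29, adjusted p = 0.0471). Cd68, F10, Zbtb46, Flt1 and Msr1 rose in the same contrast. The mean log2 level of the 9 markers was 10.87 to 11.34 in KO LSK cells against 10.18 to 11.01 in WT ones, and these ranges overlap. Its part in the rises of those members was not tested. Of 7 neutrophil markers 0 passed by limma in either contrast, and their mean lay at 10.45 to 10.67 in KO myeloid progenitors against 10.08 to 10.30 in WT ones, and at 10.84 to 10.88 in KO LSK cells against 10.60 to 10.92 in WT ones.

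Other marker lists were called in both directions. Of 6 basophil and mast cell markers, the protease gene Mcpt8 rose in KO myeloid progenitors and KO LSK cells (1.46 ± 0.18 and 2.42 ± 0.18, limma adjusted p = 0.00177 and 0.000119). Prss34, another protease gene, fell in both (-1.73 ± 0.19 and -2.79 ± 0.19, adjusted p = 0.000985 and 8.9e-05), and Gzmb fell in KO myeloid progenitors (-1.87 ± 0.21, adjusted p = 0.000966). The mean level of these 6 was 9.86 to 10.14 in KO myeloid progenitors against 10.35 to 10.36 in WT ones, and 8.81 to 8.83 in KO LSK cells against 8.91 to 8.93 in WT ones. Of 5 megakaryocyte markers, the platelet chemokine gene Pf4 fell in both populations (-1.23 and -1.21, adjusted p = 0.023 and 0.0184), and Gp1bb rose in KO myeloid progenitors (1.27, adjusted p = 0.0291). The mean of the 5 was 9.22 to 9.38 in KO myeloid progenitors against 8.77 to 8.80 in WT ones, and 8.65 to 9.05 in KO LSK cells against 8.58 to 9.05 in WT ones. Of 6 T and NK cell markers Nkg7 rose in KO LSK cells (1.14, adjusted p = 0.0138), where their mean was 7.37 to 7.39 against 7.17 to 7.29 in WT ones. Of the LSK markers Cd34 fell in KO myeloid progenitors (-1.18, adjusted p = 0.00647), where their mean was 9.68 to 9.88 against 9.59 to 9.79 in WT ones. Of 3 erythroid and 6 endothelial and stromal markers, 0 passed by limma in either contrast, with 1 unadjusted p under 0.05 among the erythroid markers in myeloid progenitors and 2 among the endothelial and stromal markers in LSK cells. The part of these cell types in the changes of the members was not tested.

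Whether the genotype acted differently in the sorted populations was tested as the KO minus WT change in myeloid progenitors minus that in LSK cells. By limma 0 of the 34 members passed, beside 0.062% of all genes, and 11 members had an unadjusted p under 0.05, beside 6.35% of all genes. The members with the lowest p were Zbtb46 (-1.46 ± 0.30, adjusted p = 0.14), Cd68 (-1.50 ± 0.38, adjusted p = 0.295), Cd14 (-0.94 ± 0.25, adjusted p = 0.337), Ccr7 (0.71 ± 0.20, adjusted p = 0.392) and Fcgr3 (-1.33 ± 0.39, adjusted p = 0.436). A negative value means that the KO minus WT change was lower in myeloid progenitors than in LSK cells. All 4 dendritic cell surface genes were among the 11, with positive differences of 0.21 to 0.71. For 6 members, 17.6% of the 34, both KO mice lay above both WT mice in 1 population and below both in the other, beside 4.31% of all genes. A fit over the 24 single arrays, in which the mouse was a random block, called 6 members, Zbtb46, Cd68, Cd14, Fcgr3, Flt1 and Ccr7, the first 5 negative and Ccr7 positive. That fit called 454 of all 17741 genes for this difference, where the fit of mouse means called 11.

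The populations themselves were compared within each genotype. Among KO mice, 7 members were higher and 2 lower in myeloid progenitors than in LSK cells, beside 5.49% and 7.26% of all genes (26.5% of the members and 12.8% of all genes in either direction). Among WT mice, 10 were higher and 7 lower, beside 5.46% and 8.08% of all genes (50% and 13.5% in either direction). All 9 members called in KO mice were also called in WT mice, in the same direction. The higher ones in both were Irf8, Mpeg1, Fcgr3, Fcgr2b, Emr1, Ms4a6c and F10, and the lower ones were Ctss and Tlr7. Zbtb46, Cd14 and Flt1 were higher, and Maf, Itgax, Cd83, Ccr7 and Xcr1 lower, by the test in WT mice alone; the difference between genotypes is the same quantity as the interaction above, in which 0 members passed.

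**Figure D3:**
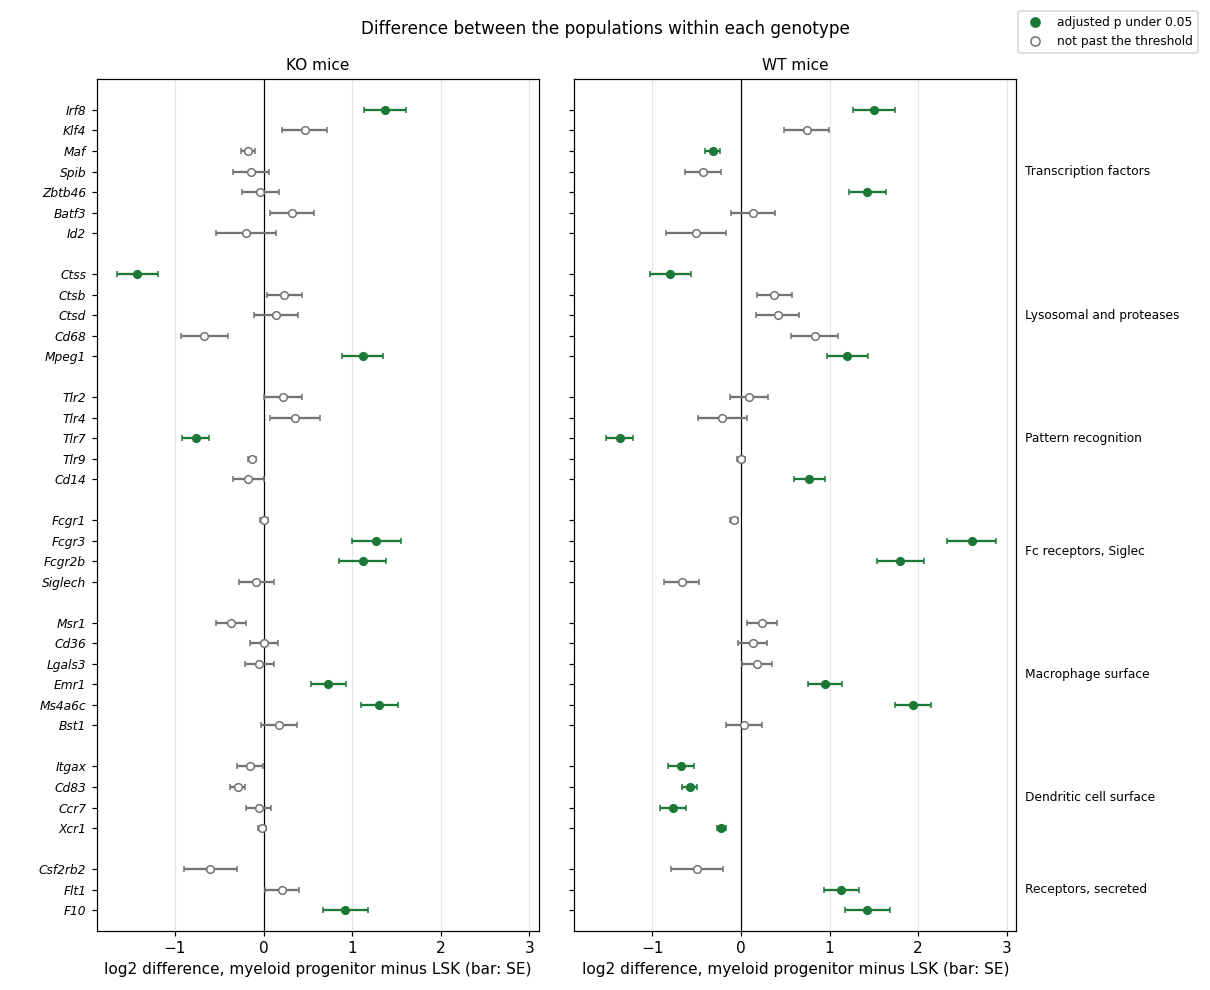
Log2 difference of each measured gene, myeloid progenitors minus LSK cells, in KO mice (left) and WT mice (right), with bars for the standard error of the limma fit (2 mice a group) and filled points for adjusted p under 0.05. Fcgr3 and Ms4a6c lie farthest to the right in WT mice, at 2.60 and 1.94, and at 1.27 and 1.31 in KO mice.

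Fcgr3 was higher in myeloid progenitors than in LSK cells by 1.27 ± 0.28 in KO mice (2.42-fold, limma adjusted p = 0.0146) and by 2.60 ± 0.28 in WT mice (6.08-fold, adjusted p = 0.000284). Myeloid progenitors are commonly divided by their Fc gamma receptors, and the granulocyte and macrophage progenitors among them carry the most. Ms4a6c was higher by 1.31 ± 0.20 in KO mice (adjusted p = 0.00263) and 1.94 ± 0.20 in WT mice (adjusted p = 0.00021), and both calls held in every alternative. Irf8 was higher by 1.37 ± 0.24 in KO mice and 1.5 ± 0.24 in WT mice (adjusted p = 0.00481 and 0.00255). Fcgr2b differed by 1.12 ± 0.27 in KO mice and 1.80 ± 0.27 in WT mice, and its dimmer probes were also higher in WT myeloid progenitors (0.30 and 0.72). With its probes averaged its WT difference was 0.94. In KO mice the Fcgr3 and Fcgr2b calls were lost without mouse 2 or mouse 7.

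Tlr7 and Ctss ran the other way. Tlr7 differed by -0.76 ± 0.15 in KO mice (limma adjusted p = 0.00927) and -1.37 ± 0.15 in WT mice (adjusted p = 0.000311). Ctss differed by -1.43 ± 0.23 in KO mice (adjusted p = 0.00309) and -0.80 ± 0.23 in WT mice (adjusted p = 0.0433), the second call being lost without mouse 1, 3, 5, 6, 7 or 8. The 4 dendritic cell surface genes were all lower in WT myeloid progenitors than in WT LSK cells, from -0.22 for Xcr1 to -0.77 for Ccr7, while in KO mice they differed by -0.29 to -0.02 and 0 passed by limma (1 with an unadjusted p under 0.05). Zbtb46 differed by -0.04 ± 0.21 in KO mice and 1.43 ± 0.21 in WT mice, and Flt1 by 0.21 ± 0.20 in KO mice and 1.13 ± 0.20 in WT mice. Cd68 differed by -0.67 ± 0.27 in KO mice and 0.83 ± 0.27 in WT mice and passed in neither (adjusted p = 0.14 and 0.0661). Without mice 1 and 5 the members' median difference between WT populations was -0.01, in place of 0.13. Fewer members and fewer of all genes then passed in that comparison.

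A wider set of 103 genes of the same pathways, drawn from textbook knowledge with earlier results known, held 88 with a probe. In KO myeloid progenitors 8 of the 88 fell and 0 rose (5 with an unadjusted p under 0.05 by limma had a higher KO mean), beside 1.74% and 0.908% of all genes. In KO LSK cells 8 fell and 5 rose, beside 2.9% and 1.74% of all genes. Those counts are 9.09% fallen in each population and 5.68% risen in LSK cells, and the counts per list are descriptions over few genes. The median log2 change was -0.05 in myeloid progenitors and -0.06 in LSK cells. Clec7a, which encodes the beta-glucan receptor dectin-1, had 9.19 and 8.49 in KO myeloid progenitors against 11.41 and 11.23 in WT ones, and 8.38 and 9.05 in KO LSK cells against 9.85 and 10.24 in WT ones. Every KO mouse was below every WT mouse (-2.48 ± 0.30 and -1.33 ± 0.30, adjusted p = 0.00164 and 0.0319). Ctse, the aspartic protease cathepsin E, had 9.17 and 8.94 in KO myeloid progenitors against 11.22 and 11.66 in WT ones, and 8.76 and 8.85 in KO LSK cells against 9.71 and 10.25 in WT ones (-2.39 ± 0.25 and -1.18 ± 0.25, adjusted p = 0.000833 and 0.0248).

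**Figure D4:**
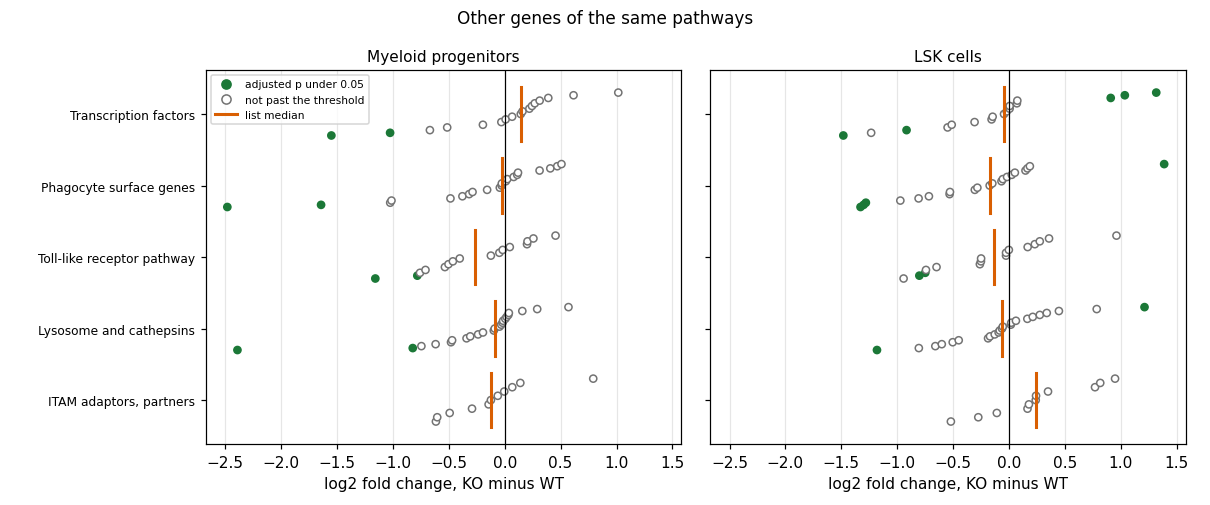
Log2 fold change, KO minus WT, of the 88 measured genes of 5 wider lists in myeloid progenitors (left) and LSK cells (right), a point per gene, filled for limma adjusted p under 0.05, with a bar at each list's median. Clec7a and Ctse are the filled points farthest to the left in myeloid progenitors, at -2.48 and -2.39.

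Of 16 measured genes of the Toll-like receptor pathway, 2 fell and 0 rose in each population. Tlr1, a partner of TLR2, fell by 1.16 ± 0.16 in KO myeloid progenitors (limma adjusted p = 0.00388), Tlr3 by 0.75 ± 0.14 in KO LSK cells (adjusted p = 0.0126), and Cd180, a TLR4 relative that pairs with the product of Ly86, by 0.78 ± 0.16 and 0.80 ± 0.16 (adjusted p = 0.0292 and 0.0186). Of 17 transcription factors 2 fell in KO myeloid progenitors, Tcf4, the E protein of plasmacytoid dendritic cells (-1.55 ± 0.23, adjusted p = 0.00595), and Mef2c (-1.03, adjusted p = 0.0198). In KO LSK cells 2 fell, Irf4, a factor of dendritic cells and B cells (-1.48 ± 0.18, adjusted p = 0.00182), and Mef2c (-0.92, adjusted p = 0.0254). There 3 rose, the NF-kappaB subunit Relb (1.32 ± 0.29, adjusted p = 0.0298) and the C/EBP factors Cebpb (1.04 ± 0.23, adjusted p = 0.034) and Cebpe (0.91, adjusted p = 0.0349). Mef2c and Cebpe were named after their values had been seen. Some B cell markers fell in the same comparisons, and the part of B-lineage cells in the falls of this wider set was not tested. Spi1, which encodes PU.1, had 8.95 and 8.94 in KO myeloid progenitors against 8.57 and 8.88 in WT ones, and did not pass in either population (adjusted p = 0.887 and 0.831).

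Of 21 further surface genes 2 fell in KO myeloid progenitors, and 3 fell and 1 rose in KO LSK cells. The hemoglobin scavenger receptor Cd163 fell in both (-1.64 ± 0.25 and -1.30 ± 0.25, limma adjusted p = 0.00614 and 0.0149), the chemokine receptor Ccr9 fell in KO LSK cells (-1.28 ± 0.24, adjusted p = 0.0125), and the scavenger receptor Marco rose there (1.39 ± 0.17, adjusted p = 0.00149). Csf1r, the receptor for macrophage colony-stimulating factor, had 10.44 and 10.15 in KO myeloid progenitors against 11.45 and 11.19 in WT ones and did not pass (adjusted p = 0.0634). Of 23 lysosome and cathepsin genes 2 fell in KO myeloid progenitors, Ctse and Hexa (-0.82 ± 0.19, adjusted p = 0.0458), and in KO LSK cells Ctse fell and Ctsg rose. Of 11 genes of ITAM adaptors and their partners, 0 passed in either population by limma, with 4 unadjusted p-values under 0.05 in each.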

How the data were processed

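RNA of sorted bone marrow cells was measured on 24 one-colour arrays from 8 mice, 2 per group. Per the labels' protocols, column-purified total RNA was transcribed in vitro into amino-allyl RNA, which was labelled with Cy5. The authors deposited log2 expression values; limma is named, without a version, per the submitters' processing notes. The values run from 5.66 to 15.93, and at each rank the arrays lie within 0.0451 of each other, as quantile normalization leaves them. The sources used here do not give the background correction or any spot filter. The number of mice sets the precision, since arrays hold no read counts.

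Probes were named from the platform annotation, updated through a RefSeq table of GRCm38.p6: of 22439 probes, 18213 matched by symbol, 2126 by synonym and 36 kept the array's name, while 2064 had none. Arrays of a mouse were averaged, and the fit of the 8 means used limma (version 3.58.1, R 4.3.3; lmFit and eBayes, trend and robust options on), with 1 spread for all 4 groups (residual degrees of freedom 4, median prior degrees 6.91). Tests were two-sided, with Benjamini-Hochberg adjustment across every probe and 0.05 as the threshold. The contrasts were KO minus WT in each population, their mean and their difference, and myeloid progenitors minus LSK cells in each genotype. The median correlation between arrays was 0.994 within a mouse, 0.987 between mice of a group and 0.964 between groups. Arrays with the same number did not deviate together (median correlation 0.00567 over 84 pairs, lowest -0.25).

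The members, lists and tests were chosen with earlier results of these data known. All members are reported, and from each wider list up to 4 genes with the largest change past the threshold in a KO minus WT contrast were named. Spi1, Csf1r and the markers Kit, Igll1, Elane and Ctsg are named for their roles outside that rule; the other markers were named after their values had been seen. The fit was tested on simulated data. Alternatives were fits on all arrays, without single mice, without mice 1 and 5, on the compared groups alone, without trend and robust options, over brighter probes, on the mean of a gene's probes and with recentred arrays. Genes without a probe were not analysed here.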

Additional observations from a re-analysis of the deposited data

Results flagged for a closer look

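For 6 members both KO mice lay above both WT mice in 1 population and below both WT mice in the other, beside 4.31% of all genes. Only the order of 2 against 2 mice differed, and an opposite effect of the genotype was not shown. As the KO minus WT change in myeloid progenitors minus that in LSK cells on the log2 scale, the difference was -1.46 for Zbtb46, -0.94 for Cd14, -1.33 for Fcgr3, -0.63 for Ms4a6c, -0.12 for Tlr9 and 0.52 for Itgax. None of these differences passed the limma interaction test (adjusted p = 0.14 for Zbtb46, 0.337 for Cd14, 0.436 for Fcgr3, 0.822 for Ms4a6c, 0.868 for Tlr9 and 0.748 for Itgax). Zbtb46, Cd14 and Fcgr3 passed it in the fit over single arrays, in which the mouse was a random block. That fit called 454 of all 17741 genes, in place of 11. A second Ms4a6c probe had changes of -0.12 in myeloid progenitors, where its KO and WT mice overlapped, and 0.80 in LSK cells. For Fcgr3 in LSK cells the lower KO mouse and the higher WT mouse were almost level. Tlr9 was in the lowest 25% of probes in every group. Groups of 2 mice are too small to test a single mouse as an outlier.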

How the results depend on the processing

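Of 52 calls of a member in a contrast, 14 held in every alternative, and of 853 alternative values 696 kept direction and call, 157 kept the direction and lost the call, and 0 changed sign. With all arrays and the mouse as a random block (correlation 0.442), 12 members in place of 4 passed in KO minus WT myeloid progenitors, and 6 in place of 0 for the difference between populations. Over all 17741 genes that fit called 1629 in place of 469 and 454 in place of 11. Adding the array number as a replicate block gave 12 and 6 members again, and 15 in LSK cells, beside 1549, 402 and 2570 of all genes. No other count of members left the range of 1.5 times under that replicate block. Without mice 1 and 5 together, 1 member passed in myeloid progenitors, 3 in place of 11 in LSK cells, 6 in place of 11 on average and 4 in place of 17 between WT populations. Leaving out 1 mouse at a time gave 0 to 5 in myeloid progenitors (1 without mouse 5, 1 without mouse 6 and 0 without mouse 8), 6 to 8 in LSK cells (6 without mouse 1, 2 or 4, and 7 without mouse 3 or 8), 8 to 12 on average, 0 to 1 for the difference (1 without mouse 4), 3 to 10 between KO populations (3 without mouse 7, 5 without mouse 2) and 11 to 19 between WT populations (11 without mouse 1 or 6). Here a lone mouse is assumed to vary like the other groups. The number of all genes that passed also moved from fit to fit. Without mice 1 and 5, fewer of all genes also passed in myeloid progenitors, in LSK cells, on average and between WT populations. Those drops in calls were thus not confined to the members. Without trend and robust options 1 member passed in myeloid progenitors and 7 in LSK cells, and with LSK groups fitted alone 6 did. Over all genes 288, 549 and 479 passed in these fits, in place of 469 for myeloid progenitors and 824 for LSK cells. The cause of these changes was not tested. Brighter probes, averaged probes and recentred arrays kept every count of passing members within 1.5 times, but over probes above the 50th percentile the members' median was 0.22 in LSK cells and 0.02 on average, in place of -0.08 and -0.10. With 2 mice a group and no probe sequences, small changes and cross-hybridisation cannot be resolved, and members in the lowest 25% of probes have little signal over background.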
